A study of Homo sapiens with 18 samples.

Results

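The B cell receptor signalling genes described here are a set of 10 listed by symbol: CD79A, CD79B, LYN, SYK, BTK, BLNK, PLCG2, CD22, PIK3AP1 and BANK1. Of these, 9 were measured among 18417 genes, each by its brightest probe set (the group of array probes for 1 transcript) among those assigned to a single gene. PIK3AP1 was not analysed here. The cells were Raji, a long-established line of human B lymphocytes derived from a Burkitt lymphoma. Every array, those of 0 h included, carries the same 3 compounds in the labels: sodium n-butyrate at 3 mM and phorbol ester at 0.05 µM, named as given first, and maslinic acid at 19 µM. Cells were harvested at 0, 4, 8, 12, 24 and 48 h, and each harvest has 3 arrays labelled as biological replicates. Nothing in the labels says whether these were separate cultures, so a p-value measures the spread between these arrays. All later times were set against the same 3 arrays of 0 h, and arrays without maslinic acid or without the inducers were not analysed here, so the compounds and time in culture cannot be told apart.

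The B cell receptor is a membrane immunoglobulin carried by the paired signalling chains CD79A and CD79B. On antigen binding the Src-family kinase LYN phosphorylates their tails, SYK docks there, and the adaptor BLNK gathers BTK and PLCG2 so that the phospholipase can release calcium and diacylglycerol. CD22 is an inhibitory coreceptor, and BANK1 is a scaffold that binds LYN and calcium channels. Phorbol ester mimics diacylglycerol and so acts below the phospholipase step, while butyrate inhibits histone deacetylases.

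BLNK and BTK fell and stayed low from 8 h to 48 h, CD79A had fallen by 48 h, and LYN was the 1 measured member that rose. The 250 bases before the annotated start of the 3 genes that were lower at 48 h are shown because these members shared that call, BLNK and BTK from 8 h on and CD79A at 48 h only. They are RefSeq sequences on GRCh38.p14, read 5′ to 3′ on the gene's strand, for BLNK at chr10:96271570-96271819 on the minus strand, BTK at chrX:101390797-101391046 on the minus strand and CD79A at chr19:41877029-41877278 on the plus strand. Capitals mark matches, on either strand, to GAGGAA (core of the PU.1 motif), GGAAGT (core of the wider ETS family), ATTTGCAT (the octamer) and CCCNNGGG (core of the EBF1 motif).
BLNK: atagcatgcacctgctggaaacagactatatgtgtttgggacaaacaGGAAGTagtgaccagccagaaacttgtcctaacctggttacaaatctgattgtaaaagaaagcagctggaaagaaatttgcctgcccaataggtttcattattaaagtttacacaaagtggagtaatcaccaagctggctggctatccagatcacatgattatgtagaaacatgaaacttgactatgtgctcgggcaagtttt
BTK: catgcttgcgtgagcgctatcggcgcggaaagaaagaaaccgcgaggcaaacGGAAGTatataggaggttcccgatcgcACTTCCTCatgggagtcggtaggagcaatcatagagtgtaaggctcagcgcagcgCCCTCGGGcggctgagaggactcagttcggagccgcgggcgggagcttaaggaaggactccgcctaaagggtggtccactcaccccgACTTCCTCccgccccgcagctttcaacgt
CD79A: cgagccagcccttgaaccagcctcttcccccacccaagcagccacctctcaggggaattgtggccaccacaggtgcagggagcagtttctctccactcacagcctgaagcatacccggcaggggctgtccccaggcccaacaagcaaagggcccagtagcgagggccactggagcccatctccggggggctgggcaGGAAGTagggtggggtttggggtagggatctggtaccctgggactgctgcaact
The table held such a window for 7 of the 9 measured genes, and CD79B and LYN were without one there. GGAAGT, a motif added after the sequences had been read, was present in 5 of the 7, namely CD79A, BTK, BLNK, PLCG2 and BANK1, against 20% of 24885 promoter windows of the same length. As the motif was added after these windows were read, that contrast is no test of the motif. In BLNK it lay at -203 to -198 from the start and in CD79A at -54 to -49. BTK held 3 copies, and those on the minus strand at -171 to -166 and at -29 to -24 overlapped its 2 copies of the PU.1 core. That core was present in 2 of 7 windows (23.3% of all windows), CCCNNGGG in 2 of 7 (16.3%) and the octamer in 0 of 7 (1.7%). These matches are letters in a window and show no binding.

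Limma's moderated test, adjusted over all genes by the Benjamini-Hochberg method, called a gene at an adjusted p under 0.05. At 4 h 0 of 9 members passed (2 had an unadjusted p under 0.05), where 1.75% of all genes were called. At 8 h BTK and BLNK fell and LYN rose, 3 of 9 against 6.68% of all genes (3.18% lower and 3.50% higher). At 12 h 6 of 9 were called against 8.05%: BTK, BLNK, PLCG2, CD22 and BANK1 fell (4.14% of all genes lower) and LYN rose (3.91% higher). At 24 h BTK and BLNK alone were called, 2 of 9 against 12.5% (5.74% lower and 6.74% higher). At 48 h CD79A, BTK and BLNK fell (8.11% of all genes lower) and LYN rose (6.92% higher), 4 of 9 against 15% in either direction. The F test over all times called BTK and BLNK, 2 of 9 against 16.4% of all genes, and LYN missed it at an adjusted p of 0.05004. The members were chosen with earlier results of these data known, so their counts beside all genes are descriptive only.

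Between harvests that followed each other, BLNK alone passed. From 4 h to 8 h it fell, 1 of 9 members against 0.223% of all genes. From 8 h to 12 h 0 of 9 passed (1 had an unadjusted p under 0.05), as did 0.00% of all genes by limma. From 12 h to 24 h 0 of 9 passed (0 had an unadjusted p under 0.05) against 1.37% of all genes, and from 24 h to 48 h again 0 of 9 (0 unadjusted) against 0.402%.

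These counts moved with single arrays. The 12 h count was 3 without replicate 1, 2 or 3 of 0 h or replicate 3 of 12 h, and 2 without replicate 1 or 2 of 12 h. The 8 h count was 5 without replicate 3 of 48 h, and the 24 h count was 4 without replicate 3 of 4 h or replicate 1 or 3 of 48 h. By the F test, 4 were called when replicate 3 of 4 h or replicate 2 or 3 of 24 h was left out, and 5 or 6 when replicate 1 or replicate 3 of 48 h was. BLNK and BTK were called at 8, 12, 24 and 48 h under each of the 26 alternatives run.

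Over the later harvests in order, the median difference of the 9 genes from 0 h was -0.33, -0.98, -0.99, -0.96 and -0.70 on the log2 scale. The median over all genes stayed between -0.02 and 0.05. The arrays of a later time lay wholly below the 3 of 0 h for 3 of 9 genes at 4 h (7.96% of all genes), 7 at 8 h (10.6%) and 8 at 12 h (12.3%). The number was 7 at 24 h (13.6%) and 3 at 48 h (13.2%). The later arrays lay wholly above for LYN at 4 h (10.5% of all genes), 8 h (8.60%) and 12 h (15.6%), and for 0 of 9 at 24 h (13.7%) and 48 h (15.2%). SYK, CD22 and BANK1 had the widest spread at 48 h.

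**Figure D1:**
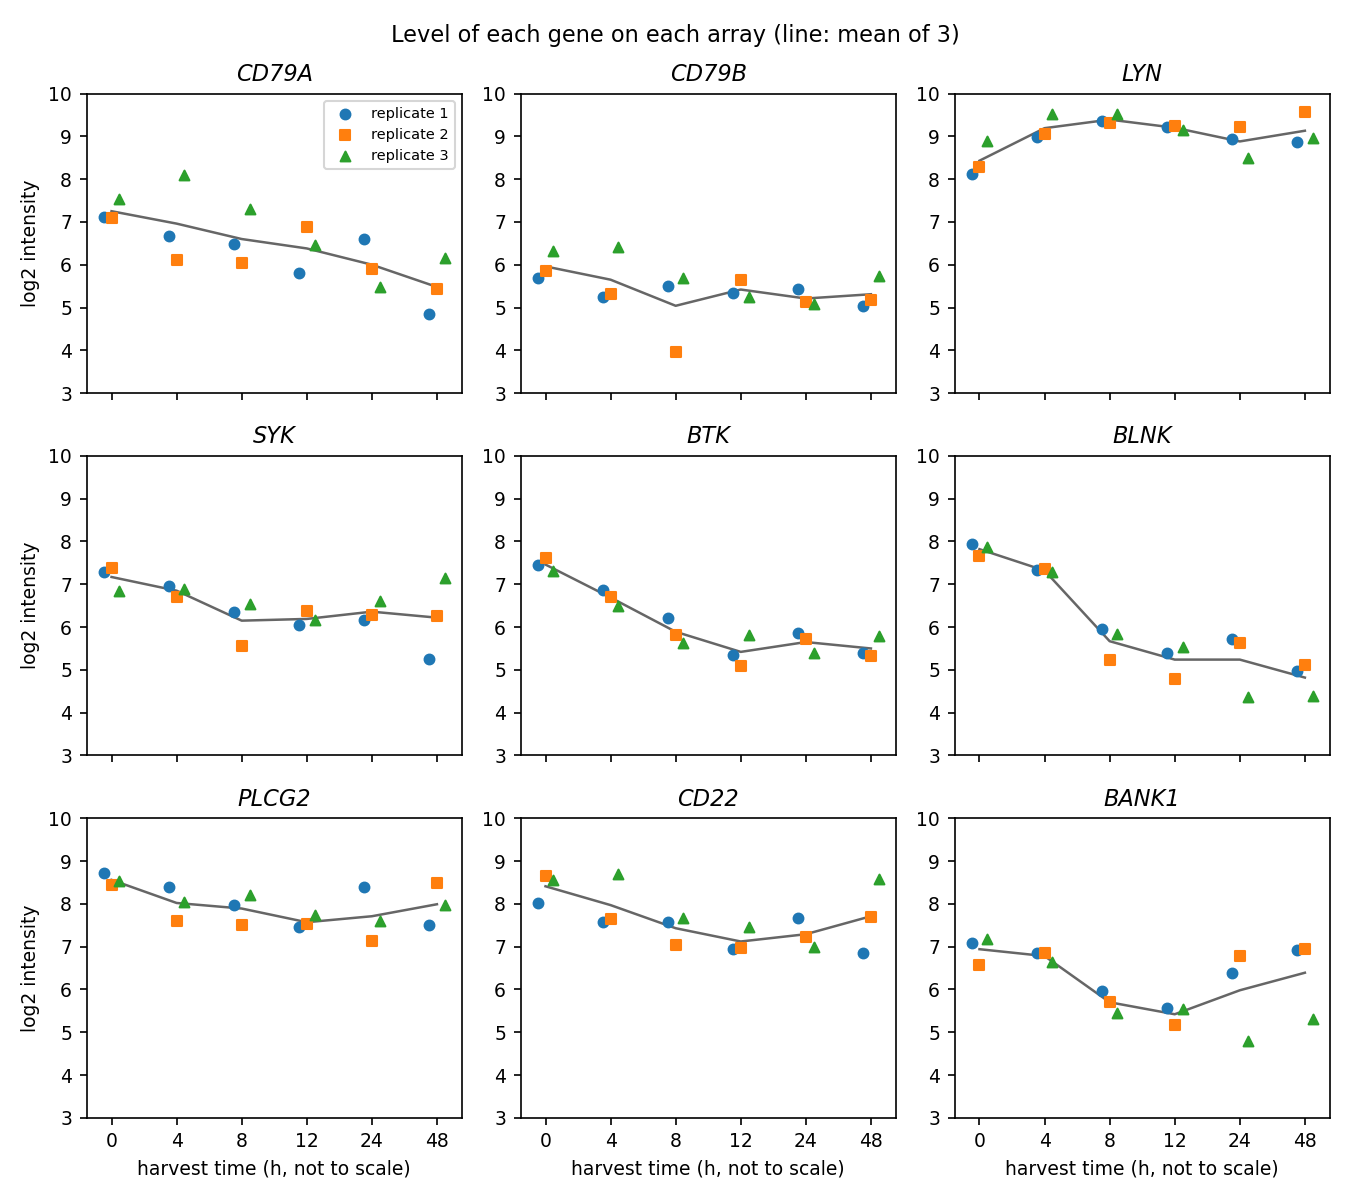
Log2 intensity (vertical axis) of the 9 measured genes by harvest time (horizontal axis, in h, evenly spaced). Each symbol is 1 array, its shape gives the replicate number and the line joins the means of 3 arrays. BLNK goes from 7.65 to 7.94 at 0 h down to 4.39 to 5.11 at 48 h, the mean of LYN is lowest at 0 h, and replicate 3 of BANK1 lies apart at 24 h and 48 h.

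The identity of the cells was checked on other B cell genes. MS4A1 (CD20), PAX5 and CD40, the 3 of 6 listed B cell markers that were measured, lay above the array's median on every array. So did 4 of 6 plasma cell markers, 1 of 6 T cell markers (CD7), 0 of 6 monocyte markers and 1 of 5 epithelial markers (KRT18). The mean level of the 3 B cell markers ran from 7.63 to 7.89 at 0 h, 6.98 to 7.29 at 12 h and 7.53 to 7.93 at 48 h. MS4A1 and CD40 did not move alike, so the mean of the 3 does not show the course of each. PAX5 ran from 5.20 to 7.51 over all arrays, and its differences from 0 h are not given here. At 12 h the difference from 0 h was -1.26 for MS4A1 (adjusted p = 0.0105) and 0.77 for CD40 (adjusted p = 0.203). At 48 h it was -0.35 for MS4A1 (adjusted p = 0.519) and 1.05 for CD40 (adjusted p = 0.0486). The mean level of the 6 plasma cell markers ran from 6.24 to 6.66 at 0 h and 5.69 to 5.82 at 48 h. Over all arrays JCHAIN (7.25 to 10.90) and XBP1 (5.43 to 8.47) ranged most, and PRDM1 (6.13 to 7.23) and SDC1 (3.80 to 4.69) least. That mean too does not show the course of each gene. The part of these shifts in the results was not tested. In a bulk sample, fewer cells of a type and less RNA per cell cannot be told apart. Of the 162 member values, 0 lay below the lower quartile of their own array and 1 below its median, CD79B on replicate 2 of 8 h. That array had the narrowest interquartile range, 2.37 against 2.74 to 3.16 on the others, and was the lowest of its time for 7 of the 9 genes. Replicate 3 of 24 h was also the lowest of its time for 7 of 9, and replicate 1 of 48 h for 6 of 9.

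Among the receptor's signalling chains, CD79A read 7.12, 7.09 and 7.53 on the 3 arrays of 0 h (log2 intensity, replicates 1 to 3, here and below). It read 6.68, 6.10 and 8.10 at 4 h, 6.49, 6.03 and 7.30 at 8 h, and 5.80, 6.88 and 6.46 at 12 h. At 24 h the values were 6.59, 5.91 and 5.49 and at 48 h 4.86, 5.43 and 6.15. The means thus stepped down at every harvest, from 7.25 ± 0.25 to 5.48 ± 0.64 (SD, n = 3 each), and from 12 h on no array overlapped those of 0 h. The difference at 48 h was -1.77 (SE 0.45, adjusted p = 0.0115), a level 3.40-fold lower, and it was -1.25 at 24 h (SE 0.45, adjusted p = 0.0869). Without replicate 1 of 48 h the 48 h call was lost (adjusted p = 0.0663). At 24 h the call was made without replicate 3 of 4 h (adjusted p = 0.0321). It was also made with median centring (0.0495), array weights (0.0389) and the fit of the 6 arrays compared (0.0168). Replicate 3 of 4 h, at 8.10, was the brightest CD79A value of the series.

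CD79B, the partner chain, read 5.70, 5.85 and 6.32 at 0 h. It read 5.24, 5.31 and 6.41 at 4 h, 5.50, 3.95 and 5.68 at 8 h, and 5.35, 5.65 and 5.25 at 12 h. At 24 h it read 5.43, 5.12 and 5.09, and at 48 h 5.03, 5.17 and 5.74. The arrays of 8, 12 and 24 h lay below those of 0 h, and replicate 3 lay above the other two at 0, 4, 8 and 48 h. Its level was lower at every later time, by 0.30 to 0.91 on the log2 scale, but it passed the test at none of them (adjusted p from 0.186 to 0.811). In the fit of the 6 arrays compared CD79B passed at 24 h (adjusted p = 0.0421). The lowest mean, 5.04 ± 0.95 (SD, n = 3) at 8 h, rested on replicate 2, without which the 8 h difference was -0.36.

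LYN, which starts the cascade by phosphorylating the CD79 tails and also feeds inhibition through CD22, moved the other way. It read 8.12, 8.28 and 8.89 at 0 h, then 8.99, 9.06 and 9.53 at 4 h and 9.35, 9.32 and 9.52 at 8 h. At 12 h it read 9.21, 9.23 and 9.15, at 24 h 8.94, 9.21 and 8.50 and at 48 h 8.87, 9.56 and 8.95. The 4, 8 and 12 h arrays all lay above those of 0 h, and those of 24 h and 48 h overlapped them through replicate 3 of 0 h. LYN was 1.95-fold higher at 8 h, a difference of 0.97 (SE 0.23, adjusted p = 0.0146). It was higher by 0.77 at 12 h (adjusted p = 0.0451) and 0.70 at 48 h (adjusted p = 0.0452), with 0.77 at 4 h (adjusted p = 0.108) and 0.46 at 24 h (adjusted p = 0.25) not past the test. Of 26 alternatives, 4 ended the 8 h call, 10 the 12 h call and 13 the 48 h call, while the difference stayed above 0 in each. Leaving out replicate 1 of 0 h gave an adjusted p of 0.0728 at 8 h, 0.161 at 12 h and 0.174 at 48 h. Leaving out replicate 2 of 0 h gave 0.0681, 0.156 and 0.152 in that order. The 8 h call was also lost when replicate 3 of 8 h was left out (0.0518), the 12 h call with any 1 array of 12 h left out (0.095 to 0.123) and the 48 h call with replicate 2 of that time left out (0.213). Arrays of other harvests moved it by less: the 12 h call was also lost without replicate 1 or 2 of 4 h, replicate 1 of 8 h or replicate 1 of 24 h (0.0528 to 0.0562). The 48 h call was lost without those same arrays, replicate 3 of 8 h or any 1 array of 12 h (0.05008 to 0.058). At 4 h LYN passed when replicate 3 of 0 h was left out (0.0406).

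SYK, the kinase that docks on the phosphorylated CD79 tails, read 7.29, 7.39 and 6.84 at 0 h, 6.95, 6.71 and 6.88 at 4 h and 6.35, 5.55 and 6.55 at 8 h. At 12 h it read 6.04, 6.38 and 6.16, at 24 h 6.17, 6.29 and 6.61 and at 48 h 5.26, 6.25 and 7.14. The arrays of 8, 12 and 24 h all lay under those of 0 h, whereas at 48 h the arrays were widely spread (SD 0.94) and overlapped 0 h. The differences of -1.02, -0.98, -0.82 and -0.96 at 8, 12, 24 and 48 h (SE 0.34 each) did not pass, with adjusted p of 0.084, 0.0864, 0.142 and 0.066. Without replicate 3 of 48 h the 48 h difference was -1.42 and passed (adjusted p = 0.0027), and those of 8, 12 and 24 h passed too (adjusted p = 0.0233, 0.0257 and 0.0487). The latter also passed when replicate 1 of 48 h was left out (adjusted p = 0.0208, 0.0226 and 0.0443), and the 48 h difference when replicate 2 of 8 h was (adjusted p = 0.0451). With array weights SYK passed at 8, 12, 24 and 48 h (adjusted p from 0.0132 to 0.0217). With median centring it passed at 12 h and 48 h (0.0452 and 0.0295), and in the fit of the 6 arrays compared at 12 h and 24 h (0.00781 and 0.0283).

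BTK, the Tec-family kinase that activates the phospholipase, read 7.46, 7.61 and 7.30 at 0 h and 6.87, 6.71 and 6.50 at 4 h. It read 6.21, 5.82 and 5.63 at 8 h, 5.35, 5.09 and 5.81 at 12 h, 5.85, 5.71 and 5.40 at 24 h and 5.40, 5.32 and 5.78 at 48 h. Every later array lay below every array of 0 h, those of 4 h included. The level was 2.97-fold lower at 8 h (difference -1.57, SE 0.20, adjusted p = 0.000132) and 4.11-fold lower at 12 h (-2.04, SE 0.20, adjusted p = 7.3e-06). It was then 3.49-fold lower at 24 h and 3.87-fold lower at 48 h (adjusted p = 1.21e-05 and 2.78e-06). In descending order the means were those of 0, 4, 8, 24, 48 and 12 h, and the largest step between harvests was 0.80 down from 4 h to 8 h (adjusted p = 0.133), and the difference of -0.76 at 4 h against 0 h missed the threshold too (adjusted p = 0.0677).

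BLNK, the adaptor that brings BTK and PLCG2 to active SYK, had the largest fall of the set at 48 h. It read 7.94, 7.65 and 7.86 at 0 h and 7.33, 7.36 and 7.29 at 4 h, then 5.96, 5.22 and 5.84 at 8 h. At 12 h it read 5.39, 4.79 and 5.54, at 24 h 5.72, 5.63 and 4.36 and at 48 h 4.97, 5.11 and 4.39. All later arrays lay below those of 0 h, and those from 8 h on lay below those of 4 h as well. Between 4 h and 8 h alone BLNK fell by 1.65 (SE 0.30, adjusted p = 0.028). That call was lost without any 1 of the 3 arrays of 4 h or without replicate 1 or 2 of 8 h, with adjusted p of 0.0628 to 0.119. Against 0 h the level was 4.43-fold lower at 8 h, 5.96-fold at 12 h, 5.98-fold at 24 h and 7.96-fold at 48 h, the last a difference of -2.99 (SE 0.30, adjusted p = 2.01e-06). In descending order the means were those of 0, 4 and 8 h, then 12 h and 24 h at 5.24 each, then 48 h.

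PLCG2, the phospholipase itself, read 8.72, 8.43 and 8.53 at 0 h, 8.39, 7.61 and 8.05 at 4 h and 7.97, 7.50 and 8.20 at 8 h. It read 7.45, 7.52 and 7.73 at 12 h, 8.39, 7.14 and 7.60 at 24 h and 7.51, 8.49 and 7.97 at 48 h. The arrays of 4, 8, 12 and 24 h lay below those of 0 h, and replicate 2 of 48 h overlapped them. The difference was -0.99 at 12 h (SE 0.29, adjusted p = 0.0424), the time of its lowest mean, and -0.57 at 48 h (adjusted p = 0.226). Its 12 h call was lost without any 1 of the 6 arrays compared (adjusted p from 0.0717 to 0.139) or without replicate 1 of 8 h (0.0529). With the mean of all probe sets that call was lost too (0.0647). At 24 h the gene passed when replicate 1 of that time was left out (adjusted p = 0.0115), and with median centring (0.0315) or array weights (0.0173). A second PLCG2 probe set read 7.77, 8.27 and 7.70 at 0 h and 7.26, 7.24 and 7.65 at 12 h, a difference of -0.53 (SE 0.27, adjusted p = 0.285). The pair thus shared the direction at 12 h but not the call.

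Of the modulators, CD22 recruits phosphatases that damp the signal. It read 8.02, 8.65 and 8.56 at 0 h, 7.57, 7.65 and 8.70 at 4 h and 7.58, 7.03 and 7.66 at 8 h. The later values were 6.95, 6.96 and 7.46 at 12 h, 7.66, 7.22 and 6.98 at 24 h and 6.86, 7.70 and 8.58 at 48 h. The 8, 12 and 24 h arrays lay below those of 0 h, and the 48 h arrays were the most spread, overlapping 0 h through replicate 3. The difference was -1.29 at 12 h (SE 0.36, adjusted p = 0.0344), -1.12 at 24 h (adjusted p = 0.0504, past the threshold under 12 of 26 alternatives, among them the removal of replicate 1 of 0 h, 3 of 4 h, 2 of 8 h, and 1 or 3 of 48 h) and -0.70 at 48 h (adjusted p = 0.238). Without replicate 3 of 48 h the last became -1.13 (adjusted p = 0.0337). The 12 h call was lost without replicate 2 or 3 of 0 h or replicate 1 or 2 of 12 h (adjusted p from 0.105 to 0.129).

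BANK1, the scaffold, read 7.08, 6.56 and 7.18 at 0 h, 6.85, 6.84 and 6.65 at 4 h and 5.96, 5.70 and 5.45 at 8 h. At 12 h it read 5.57, 5.16 and 5.54, at 24 h 6.38, 6.77 and 4.79 and at 48 h 6.92, 6.95 and 5.30. The 8 h and 12 h arrays lay below every array of 0 h, and at 24 h and 48 h replicates 1 and 2 stood well above replicate 3. The 12 h level was 2.86-fold lower than that of 0 h (difference -1.52, SE 0.43, adjusted p = 0.0335), and the 48 h difference of -0.55 did not pass (adjusted p = 0.471). The rise of 0.56 from 12 h to 24 h did not pass either (SE 0.43, adjusted p = 0.704). The 8 h difference of -1.24 (adjusted p = 0.102) passed when replicate 3 of 24 h or of 48 h was left out (0.0289 and 0.0382). It also passed with array weights (0.0221) and in the fit of the 6 arrays compared (0.0242). Without replicate 3 the difference from 0 h was -0.36 at 24 h and -0.01 at 48 h. The 12 h call was lost without replicate 1 or 3 of 0 h or any 1 array of 12 h (adjusted p from 0.0736 to 0.122).

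**Figure D2:**
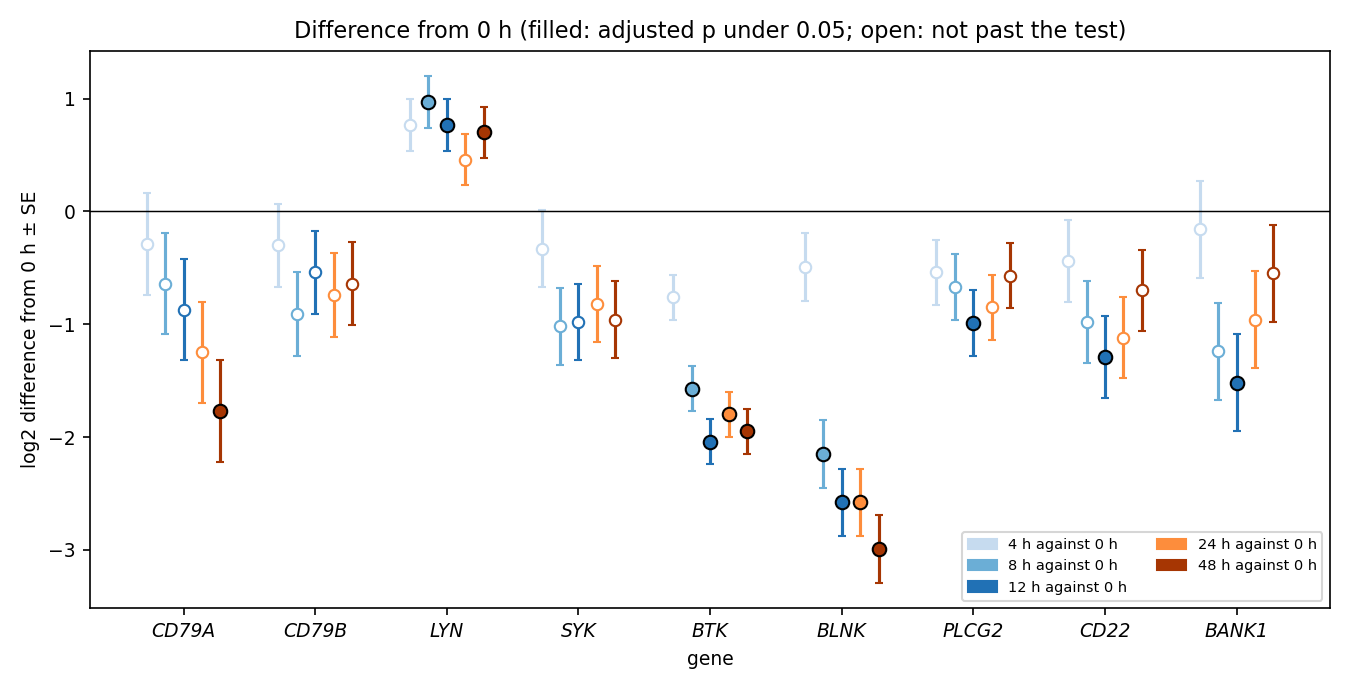
Log2 difference from 0 h (vertical axis, error bars are the SE of the model, 3 arrays per time) for the 9 measured genes, with colours for the 5 later harvests. Filled symbols passed at an adjusted p under 0.05. BLNK and BTK are filled from 8 h to 48 h, PLCG2, CD22 and BANK1 at 12 h only, and LYN is the 1 gene above 0.

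The rest of the pathway was read from 8 lists by role that hold 103 other genes, of which 89 were measured. At 8 h 4 of the 89 rose and 7 fell, and at 12 h 6 rose and 10 fell. At 24 h 13 rose and 8 fell, and at 48 h 12 rose and 9 fell. The called genes were 18%, 23.6% and 23.6% of the measured genes, which may be read against the shares of all genes above. Leaving out replicate 2 of 0 h cut the number that rose to 3 at 12 h and 7 at 24 h. Leaving out replicate 1 of 12 h cut it to 3 at 12 h, and leaving out replicate 1 of 24 h cut it to 8 at 24 h. Other alternatives raised the number that rose: array weights to 14 at 8 h and 20 at 24 h, and quantile normalization to 10 at 12 h. At 8 h it was 1 without replicate 2 of 0 h and in the fit of the 6 arrays compared. The median difference of the 89 genes was 0.12 at 12 h and 0.05 at 48 h. Genes named to spell out a short count, beside the 3 of largest difference per list, were chosen after their values were seen. Where alternatives ended the call of a pathway gene against 0 h, their number out of 26 is given, and the other such calls named held in all 26.

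Closest to the receptor, 5 of 8 listed genes were measured. The complement receptor CR2 fell by 3.07 at 12 h (SE 0.41, adjusted p = 0.000116). The ectoenzyme CD38 fell by 2.25 at 12 h (adjusted p = 0.001) and had a difference of -0.38 at 48 h (adjusted p = 0.602). MS4A1, the CD20 gene, fell by 1.26 at 12 h (adjusted p = 0.0105), with -0.35 at 48 h (adjusted p = 0.519). Its 12 h call was lost without replicate 1 of 0 h or replicate 2 of 12 h (2 of 26, adjusted p = 0.0579 and 0.0641). CD40, the T cell help receptor, rose by 1.05 at 48 h (adjusted p = 0.0486), so that 1 of 5 rose and 1 of 5 fell then. The CD40 call was lost under 14 of 26, among them the removal of any 1 array of 0 h or 48 h (adjusted p from 0.051 to 0.183).

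Of the 10 measured Src and Tec kinases and their controllers, 4 fell at 12 h. The Src-family kinase FGR fell by 1.75 (adjusted p = 0.0118) and BLK, a family member typical of B cells, by 0.78 (adjusted p = 0.0206). PTPN22, a phosphatase that restrains these kinases, fell by 1.22 (adjusted p = 0.00135), and PTPRC (CD45), the phosphatase that removes their inhibitory phosphate, by 1.04 (adjusted p = 0.0151). The FGR call was lost without replicate 3 of 0 h (1 of 26, adjusted p = 0.0699). That of BLK was lost without replicate 2 of 0 h or replicate 1 or 3 of 12 h (3 of 26, adjusted p from 0.0761 to 0.111). That of PTPRC was lost without replicate 1 of 0 h or replicate 2 of 12 h (2 of 26, adjusted p = 0.0645 and 0.0798). At 48 h BLK, PTPN22 and the CSK-binding adaptor PAG1 were the 3 of 10 that fell, and 5 fell without replicate 3 of 48 h. The BLK call at 48 h was lost under 3 of 26 (without replicate 2 of 0 h or of 48 h, and in the fit of the 6 arrays compared; adjusted p from 0.0512 to 0.0818). BLK was dim, with means of 4.57 at 0 h, 3.79 at 12 h and 3.80 at 48 h, where array medians lay between 4.03 and 4.25. FYN, YES1, LCK, TEC and CSK did not pass at any of the 5 times.

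Of 15 measured inhibitory receptors and phosphatases, 2 rose and 1 fell at 12 h, and 5 rose and 1 fell at 48 h. The median difference of the list was 0.13 at 12 h and 0.03 at 48 h. Without replicate 2 or 3 of 0 h or replicate 1 of 12 h, 1 rose at 12 h. CEACAM1, an inhibitory adhesion receptor, rose by 2.74 at 48 h, to 6.30 ± 1.33 against 3.55 ± 0.02 (SD, n = 3 each, adjusted p = 0.00208). PECAM1 rose by 1.95 at 24 h (adjusted p = 0.00118), and PTPN6 (SHP-1), the phosphatase that CD22 recruits, by 1.74 at 48 h (SE 0.33, adjusted p = 0.0013). Over the alternatives the PECAM1 difference at 24 h ran from 1.02 to 2.16. Its calls counted at 12 h and 48 h were lost with the mean of all probe sets (adjusted p = 0.0933 and 0.0569). They were also lost without replicate 3 of 0 h (0.0539 and 0.057), and that of 12 h without replicate 1 of 12 h (0.0505). LILRB1 and LAIR1 rose by 1.41 and 0.64 at 48 h, and CD72, a B cell inhibitory lectin, fell by 0.75 (adjusted p = 0.0142). The 48 h call was lost for LAIR1 without replicate 2 of 0 h or in the fit of the 6 arrays compared (2 of 26, adjusted p = 0.0532 and 0.0559). For CD72 it was lost without replicate 1 of 48 h (1 of 26, adjusted p = 0.0852).

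Of the 15 adaptors and ubiquitin ligases, 1 rose at 12 h, and 1 rose and 1 fell at 48 h. GAB2 rose by 1.10 at 24 h (adjusted p = 0.0112), the exchange factor SOS1 by 0.66 at 4 h (adjusted p = 0.0213), and GAB1 fell by 0.90 at 48 h (adjusted p = 0.0176). SOS1 was the 1 of 89 that passed at 4 h and the adaptor that rose at 48 h. Its 4 h call was lost under 5 of 26, namely without replicate 2 or 3 of 0 h or replicate 1 or 2 of 4 h, and in the fit of the 6 arrays compared (adjusted p from 0.0659 to 0.108). Its 48 h call was lost under 12 of 26 (adjusted p from 0.0509 to 0.183). The GAB1 call was lost under 6 of 26, by quantile normalization, with the mean of all probe sets (-0.43), in the fit of 6 arrays, and with replicate 1 or 3 of 0 h or replicate 3 of 48 h left out (the adjusted p ran from 0.0506 to 0.11). The GAB2 call at 24 h was lost without replicate 2 of 0 h or replicate 1 of 24 h (2 of 26, adjusted p = 0.0541 and 0.0623). Its call at 12 h, the 1 counted there, was lost without replicate 2 of 0 h or any 1 array of 12 h (4 of 26, adjusted p from 0.05006 to 0.0835). At 48 h GAB2 had a difference of 0.38 (adjusted p = 0.438). Of the 9 phosphoinositide 3-kinase and AKT genes, 2 rose and 1 fell at 48 h. The regulatory subunit PIK3R3 rose by 1.35 at 24 h (adjusted p = 0.000518), the lymphocyte catalytic subunit PIK3CD by 1.24 at 24 h (adjusted p = 0.00164) and the kinase PDPK1 by 1.04 at 12 h (adjusted p = 0.00658). At 48 h PIK3R3 and PDPK1 were the 2 that rose, and PIK3CD, at 0.68, did not pass (adjusted p = 0.0625). AKT1 fell by 0.66 at 48 h (adjusted p = 0.0227), a call lost with array weights and without replicate 2 or 3 of 0 h or replicate 1 or 2 of 48 h (5 of 26, adjusted p from 0.0549 to 0.111).

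Downstream of the phospholipase, 4 of 13 calcium and NFAT genes rose at 24 h (6.74% of all genes higher). With replicate 2 of 0 h left out 1 rose, and 2 rose with median centring or with replicate 1 of 0 h or replicate 1 or 2 of 24 h left out. The calcium release channel ITPR1 rose by 1.61 at 48 h (SE 0.25, adjusted p = 0.000216), its relative ITPR2 by 0.85 at 24 h (adjusted p = 0.0121, lost under 3 of 26, without replicate 1 or 2 of 0 h or replicate 3 of 24 h, adjusted p from 0.0522 to 0.0712), and the transcription factor NFATC2 by 0.80 at 48 h (adjusted p = 0.00276). Of the 11 genes of protein kinase C and NF-kappaB, PRKCB rose by 0.86 at 24 h (adjusted p = 0.00318) and RELA, an NF-kappaB subunit, by 0.60 at 48 h (adjusted p = 0.0424). The RELA call was lost under 12 of 26, among them the removal of any 1 array of 0 h (adjusted p from 0.05021 to 0.209). CHUK passed the F test (adjusted p = 0.0105) but no single comparison with 0 h. Of the 11 VAV, RAC and RAS genes, 2 fell at 8, 12, 24 and 48 h, both of them exchange factors that respond to diacylglycerol. RASGRP3 fell by 2.93 at 12 h (SE 0.27, adjusted p = 3.68e-06) and had a difference of -1.39 at 48 h (adjusted p = 0.00158). RASGRP1 fell by 1.68 at 48 h (SE 0.26, adjusted p = 0.000216).

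**Figure D3:**
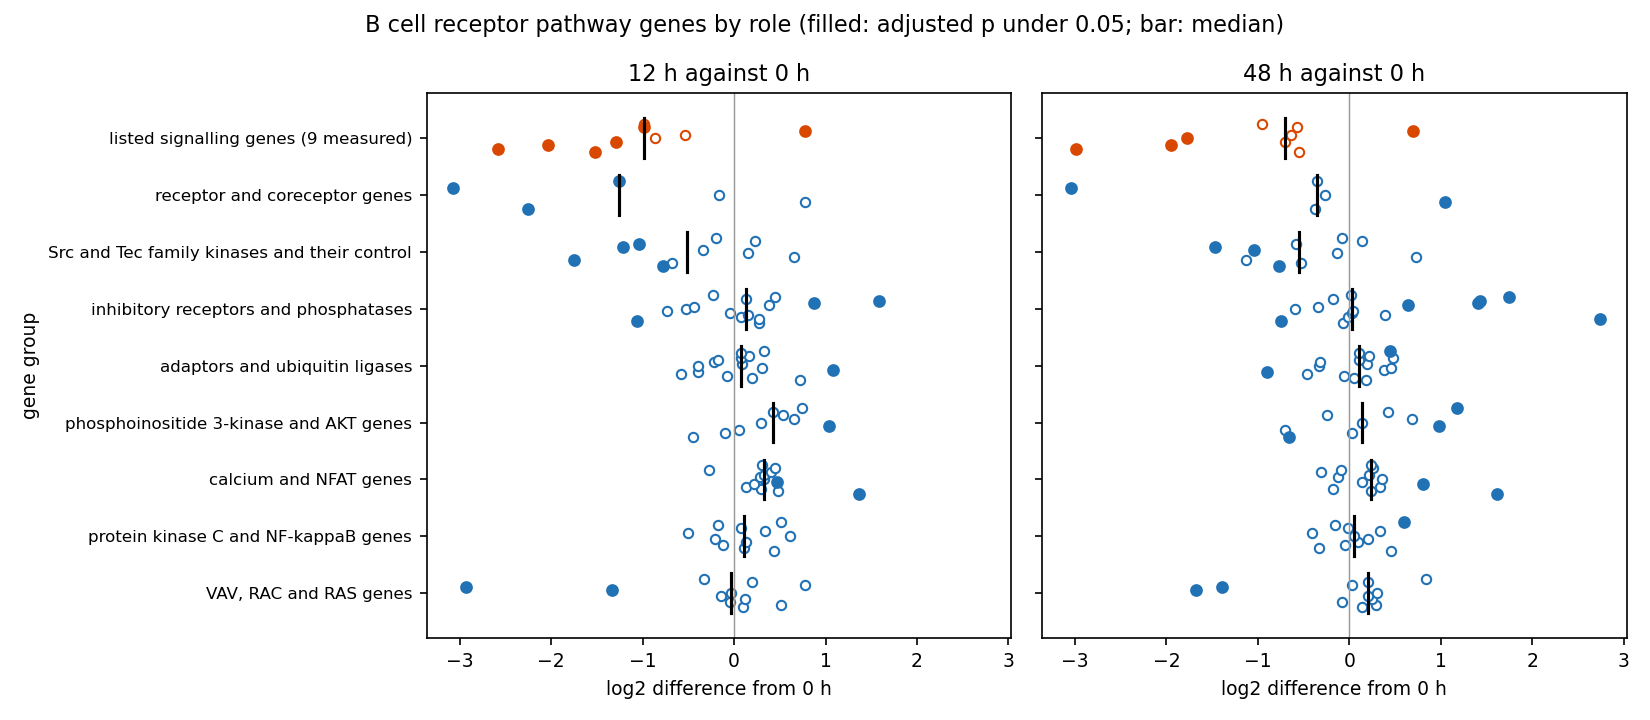
Log2 difference from 0 h (horizontal axis) at 12 h (left) and 48 h (right) for the listed signalling genes (orange) and the 8 other groups of pathway genes (blue), with 1 symbol per gene, filled where the adjusted p was under 0.05. The black bar is the group's median. At 12 h the signalling genes centre on -0.99 and the calcium and NFAT genes on 0.33.

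The genes whose course was closest to that of the extreme members were sought among the 3023 genes past the F test. Likeness was the root mean square difference over the 15 later arrays, each value taken relative to the gene's own 0 h mean. For BLNK the closest were the olfactory receptor gene OR13A1 (0.43), the germinal centre gene GCSAM (0.47) and SPARCL1, a matrix protein gene (0.51), against a median of 2.44. OR13A1 fell by 2.57 at 48 h (SE 0.25, adjusted p = 1.04e-06), GCSAM fell by 2.43 (SE 0.27, adjusted p = 4.82e-06) and SPARCL1 fell by 3.47 (SE 0.17, adjusted p = 1.08e-09). For LYN the closest were the zinc transporter SLC30A7 (0.22), the microtubule-binding gene MAPRE2 (0.23) and CCDC126 (0.23), against a median of 1.04. CCDC126 rose by 0.66 at 48 h (adjusted p = 0.0128), whereas SLC30A7 and MAPRE2, at 0.42 and 0.44, did not pass there. These genes were chosen for their likeness, so their direction follows from the choice and their values are descriptive only. The medians cover genes of any course past the F test.

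**Figure D4:**
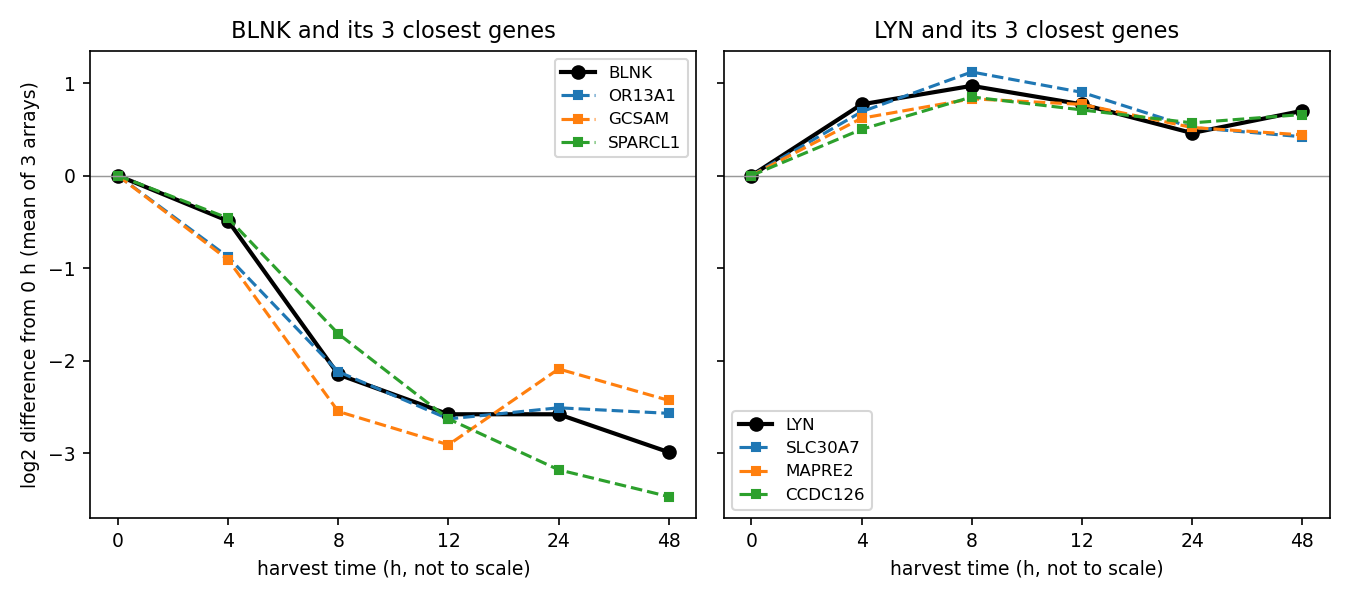
Mean log2 difference from 0 h (vertical axis, 3 arrays per time) by harvest time (horizontal axis, in h, evenly spaced) for BLNK (left) and LYN (right) as solid lines, with the 3 genes of closest course as dashed lines. From 8 h on BLNK and its neighbours lie at -1.71 or lower, and LYN and its neighbours lie at 1.12 or lower and above 0.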

How the data were processed

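Log2 intensities of 18 Affymetrix arrays were used as the authors deposited them, 1 value per probe set. Per the labels' protocols, biotinylated cDNA was made from total RNA by the array maker's method. The log2 scale was read from the range of the values (maxima of 12.39 to 12.93). Array medians lay between 4.03 and 4.25. The sources used here do not give the normalization, the software or the genome build. Precision is limited by the number of arrays.

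The platform's gene table named 1 gene for 19460 of 33297 probe sets, several for 1754 and none here for 12083. By gene ID, 19429 matched RefSeq. Each of 18417 genes was represented by its probe set of highest mean, with no filter on dim genes. Harvest time was the only term of a linear model on all 18 arrays (limma 3.58.1, R 4.3.3, 12 residual and 5.58 prior degrees of freedom). Two-sided moderated tests were adjusted by Benjamini-Hochberg within each comparison, and the script was tested on simulated data. Python 3.11.15, pandas 2.3.3 and matplotlib 3.10.9 made tables and plots. Every member was named. Of each other list, up to 3 genes of largest difference among those past the F test were named, or the 2 of smallest p where fewer than 2 passed. The members and lists were chosen with earlier results of these data known. Same-numbered arrays were not taken as pairs. The alternatives were 2 normalizations, a filter on dim genes, the mean of all probe sets, a replicate block, array weights, a fit of the 6 arrays compared, each array left out and, added after seeing the data, all probe sets tested singly.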

Additional observations from a re-analysis of the deposited data

How the results depend on the processing

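The 26 alternatives kept the direction of 47 of 48 member differences that were followed, and the exception was CD79A at 4 h, 0.15 without replicate 2 of 4 h against -0.29 (-0.86 to 0.15 with each array left out). BLNK and BTK passed at 8, 12, 24 and 48 h in every one. Leaving out each array in turn gave 0 to 1 members called at 4 h, 2 to 5 at 8 h, 2 to 7 at 12 h, 2 to 4 at 24 h, 3 to 6 at 48 h, 0 to 1 from 4 h to 8 h and 2 to 6 by the F test. It gave 0 from 8 h to 12 h, from 12 h to 24 h and from 24 h to 48 h. Array weights gave 5 at 8 h (3 as reported), 7 at 24 h, 2 from 4 h to 8 h, 1 from 12 h to 24 h and 6 by the F test, with weights of 5.184 and 0.2458 for replicates 1 and 2 of 8 h. The fit of the 6 arrays compared gave 6 at 24 h and 0 from 4 h to 8 h. Centring each array on its median gave 1 at 4 h, 5 at 24 h and 5 by the F test. The array medians stood 0.12 at 12 h and 0.14 at 48 h above those of 0 h, so that centring made the falls larger and ended LYN's calls there (0.65, adjusted p = 0.0752, and 0.56, adjusted p = 0.0955). Quantile normalization gave 4 by the F test. The replicate number as a block gave 4 by the F test. Same-numbered arrays correlated at -0.243 to 0.6 in their deviations, with 20 of 45 pairs over 0.1. Their median was 0.0778, against -0.0587 for arrays of other numbers. Of 18 arrays, 9 were closest to their own number, so this check did not settle whether the numbers pair the arrays. Over all genes and the alternatives run the count ran from 109 to 566 at 4 h (322 as reported), 575 to 2183 at 8 h (1230), 888 to 2073 at 12 h (1483), 1634 to 3256 at 24 h (2298), 2072 to 3050 at 48 h (2768), 0 to 1039 from 4 h to 8 h (41), 0 to 142 from 8 h to 12 h (0), 105 to 1099 from 12 h to 24 h (252), 10 to 258 from 24 h to 48 h (74) and 2431 to 5422 by the F test (3023). The cause of these shifts was not tested.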
